A study of Mus musculus with 90 samples.

Results

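Trim28 binding was compared across the whole genome between mouse embryonic stem cells (mESCs) with Dnmt1 restored and with Dnmt1 depleted. The chromatin immunoprecipitation sequencing (ChIP-seq) peak lists of the lines DKO0 and TKOL were used. Every Trim28 peak list of these lines was taken, which gives 4 samples (2 per line) of 90 in the series, and 6 lists, since the authors also called peaks on the pooled reads of each line. Both lines are J1 mESCs with Dnmt3a and Dnmt3b knocked out. TKOL, a clonal line, also carries a short hairpin RNA against Dnmt1, and DKO0 was derived from it by Cre excision of that hairpin, which restores Dnmt1. All cells grew on a feeder layer of CD1 embryonic fibroblasts. Trim28 lists of 2 wild-type (WT) samples, from the mESC line V6.5, are given as a further reference. The deposited DKO0 replicate lists carry the tag p5Cre in their names. The labels do not state whether replicates came from separate cultures, so the spread between replicates may be technical.

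Trim28, also called KAP1, is a corepressor with no DNA-binding domain for specific sequence. KRAB zinc finger proteins bring it to DNA, where it gathers the H3K9 methyltransferase Setdb1 and heterochromatin protein 1. In embryonic stem cells it is best known for silencing endogenous retroviruses such as intracisternal A particles (IAPs), and for guarding imprinted control regions, to which the zinc finger protein Zfp57 brings it at the methylated word TGCCGC.

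Merging all 6 lists where peaks overlapped by at least 1 bp gave 91808 loci on chromosomes 1 to 19, X and Y. A locus was called DKO0-only or TKOL-only where both replicates of that line had a peak and no list of the other line did. The sequence of the DKO0-only locus with the highest fold enrichment is shown first. It gives 300 bases of mm9 (plus strand) around the centre of the locus, as do the others that follow, with CpG sites in capitals.
chr2:25673194-25673493, intergenic, near Glt6d1: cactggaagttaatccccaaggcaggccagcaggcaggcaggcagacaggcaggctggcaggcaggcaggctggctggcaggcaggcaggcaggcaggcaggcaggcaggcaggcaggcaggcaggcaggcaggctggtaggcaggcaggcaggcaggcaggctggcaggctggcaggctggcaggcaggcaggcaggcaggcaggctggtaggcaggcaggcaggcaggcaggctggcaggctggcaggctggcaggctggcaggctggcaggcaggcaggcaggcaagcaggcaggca

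The sequence near Glt6d1 is a run of a short GGCA-rich repeat with 0 CpG sites. For TKOL, 3 loci are shown because, among the 5 with the highest fold enrichment, their central 31-base word had the fewest copies in the genome. They are printed with the word TGCCGC, or its reverse complement GCGGCA, in capitals.
chr5:29776571-29776870, intron of Nom1: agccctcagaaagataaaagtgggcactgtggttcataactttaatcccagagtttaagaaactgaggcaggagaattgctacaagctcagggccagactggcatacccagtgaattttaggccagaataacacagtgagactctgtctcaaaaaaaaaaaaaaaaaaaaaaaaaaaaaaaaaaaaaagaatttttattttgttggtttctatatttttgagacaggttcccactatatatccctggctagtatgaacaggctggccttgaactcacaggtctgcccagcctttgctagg
chr13:99674229-99674528, at Gm5453 inside Tnpo1: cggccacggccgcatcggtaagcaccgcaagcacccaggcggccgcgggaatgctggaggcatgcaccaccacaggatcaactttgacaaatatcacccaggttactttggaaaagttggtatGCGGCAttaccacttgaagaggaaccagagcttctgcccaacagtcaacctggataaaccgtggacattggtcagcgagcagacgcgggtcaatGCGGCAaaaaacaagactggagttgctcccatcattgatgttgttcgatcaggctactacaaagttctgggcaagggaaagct
chr13:25142262-25142561, intergenic, near Dcdc2a: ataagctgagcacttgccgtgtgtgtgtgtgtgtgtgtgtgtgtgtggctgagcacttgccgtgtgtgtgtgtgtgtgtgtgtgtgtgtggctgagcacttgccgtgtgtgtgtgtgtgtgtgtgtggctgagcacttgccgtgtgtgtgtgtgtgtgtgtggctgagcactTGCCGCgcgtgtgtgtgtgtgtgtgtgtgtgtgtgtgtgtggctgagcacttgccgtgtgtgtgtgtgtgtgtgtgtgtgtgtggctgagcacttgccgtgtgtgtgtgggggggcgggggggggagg

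The locus at Gm5453 holds the word 2 times, the one near Dcdc2a 1 time and the one in Nom1 0 times.

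Lastly, 3 promoters of imprinted genes are shown because they carried a Trim28 peak in TKOL replicate 1 and in none of the other 3 replicate lists. They have the highest fold enrichment of the imprinted promoter peaks in that list. TGCCGC and GCGGCA are in capitals.
chr6:58856833-58857132, Nap1l5: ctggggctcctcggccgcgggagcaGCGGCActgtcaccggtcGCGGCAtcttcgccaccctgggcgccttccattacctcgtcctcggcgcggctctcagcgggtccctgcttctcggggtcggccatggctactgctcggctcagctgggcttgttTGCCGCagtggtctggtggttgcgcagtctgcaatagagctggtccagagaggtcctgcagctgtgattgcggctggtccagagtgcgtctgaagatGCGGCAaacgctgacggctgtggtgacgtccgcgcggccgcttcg
chr2:152512493-152512792, Mcts2: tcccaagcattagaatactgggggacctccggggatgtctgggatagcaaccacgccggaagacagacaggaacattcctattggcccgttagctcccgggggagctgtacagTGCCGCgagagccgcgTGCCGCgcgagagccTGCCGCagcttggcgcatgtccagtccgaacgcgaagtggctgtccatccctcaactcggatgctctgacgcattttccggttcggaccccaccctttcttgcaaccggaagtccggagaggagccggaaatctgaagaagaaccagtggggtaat
chr6:4697808-4698107, Peg10 and Sgce: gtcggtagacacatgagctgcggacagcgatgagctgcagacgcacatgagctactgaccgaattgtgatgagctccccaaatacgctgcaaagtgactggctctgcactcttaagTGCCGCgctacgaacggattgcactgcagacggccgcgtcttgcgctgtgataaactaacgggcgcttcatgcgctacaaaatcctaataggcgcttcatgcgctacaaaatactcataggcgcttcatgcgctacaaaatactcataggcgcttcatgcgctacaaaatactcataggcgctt

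TKOL replicate 1 stood apart from the other 3 replicate lists of these lines in peak number, covered length, fold enrichment and promoter share, so values that rest on it are also given without it. The lists hold no read totals, so the depth behind each is unknown, and in bulk cells fewer cells with a bound site and weaker binding in each cell cannot be told apart. It held 31921 peaks, whereas TKOL replicate 2 held 16960 and the DKO0 replicates 18502 and 15995. Its peak names carry another library prefix than those of the other lists. Among the DKO0 and TKOL lists, only this one had peaks on the mitochondrial chromosome (10 peaks, left out of the loci). Its peaks covered 8.72 Mb, against 3.65 Mb in TKOL replicate 2 and 4.1 and 3.6 Mb in DKO0. The numbers of the DKO0 replicates bracketed that of TKOL replicate 2. The mean peak number was 17248.5 ± 1772.7 (SD, n = 2) in DKO0 and 24440.5 ± 10579.0 (SD, n = 2) in TKOL, a difference of -7192 that was smaller than the spread of TKOL (exact two-sided permutation test, p = 0.667). With 2 lists against 2, this test cannot give a p below 0.333. Without TKOL replicate 1, the difference was 288.5 peaks in the other direction.

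Replicate peaks were narrow and weak in both lines. The median width was 194 and 196 bp in the DKO0 replicates and 207 and 194 bp in the TKOL replicates (difference -5.5 bp, exact permutation p = 1). With equal peak numbers the TKOL replicate 1 median was 272 bp and the other 3 lay between 195 and 197 bp, a difference of -37 bp between lines (exact permutation p = 1), and at a −log10 q of at least 5 the difference was -37.8 bp. Median fold enrichment over the local background, as MACS2 reports it, was 3.93 and 3.99 in DKO0 and 3.38 and 3.96 in TKOL (difference 0.285, exact permutation p = 0.667). Without TKOL replicate 1 the medians differed by -0.00313. Peaks with a −log10 q of at least 5 made up 14.7% and 15.5% of the DKO0 lists and 11.9% and 15.2% of the TKOL lists. The largest fold enrichment in a replicate list lay between 18.3 in TKOL replicate 1 and 22.8 in DKO0 replicate 1.

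The pooled lists were of another kind. They held 62621 peaks in DKO0 and 56161 in TKOL, with medians of 230 and 282 bp, and 10% and 13.5% of their peaks were 1000 bp or wider, whereas at most 1.1% were in any replicate list. Thus the line with more peaks depended on which lists were read, since the mean of the replicates was higher in TKOL and the pooled number higher in DKO0. The peak names of both pooled lists carry a further library, a different one for each line, and those of the replicate lists do not. Among the peaks of a replicate list, 90.6% and 90% in DKO0 overlapped the pooled list of their line, compared with 86.5% for TKOL replicate 1 and 71.6% for TKOL replicate 2.

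**Figure D1:**
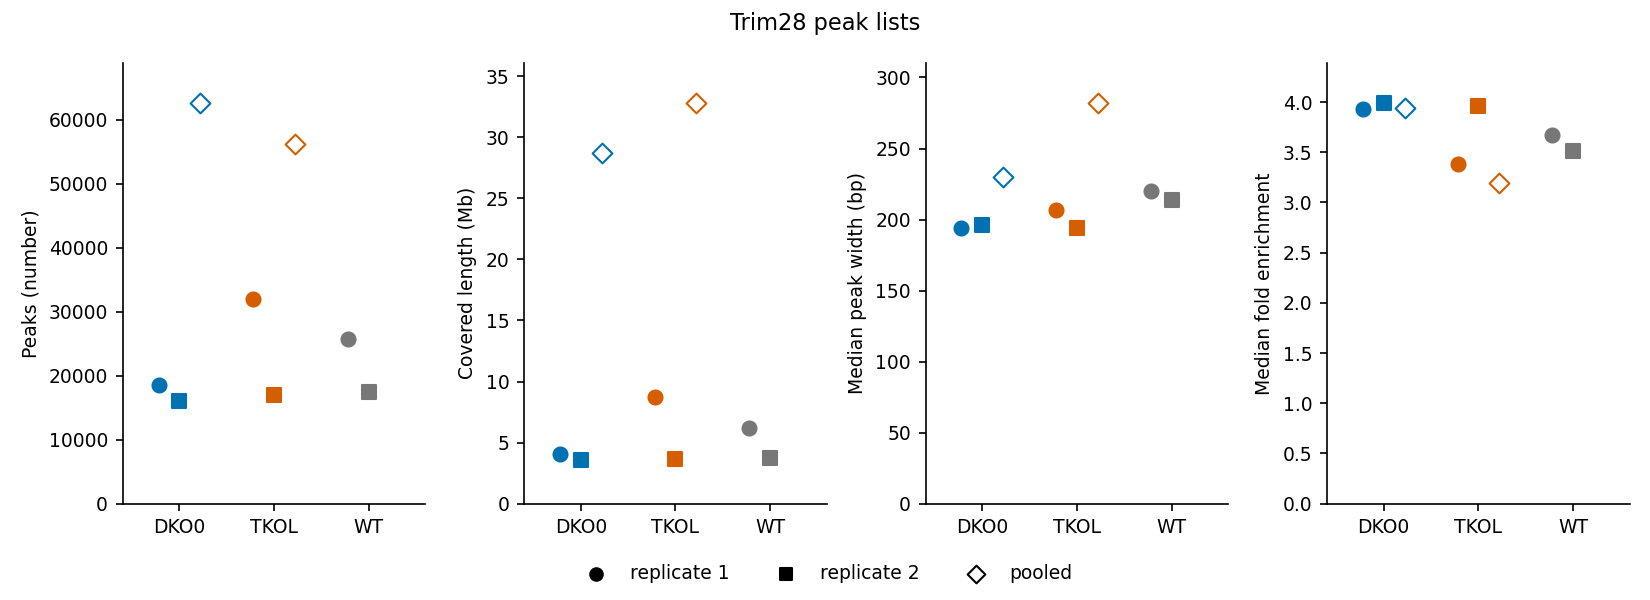
Peaks, covered length (Mb), median width (bp) and median fold enrichment of each Trim28 list, with replicate 1 as circles, replicate 2 as squares and pooled lists as open diamonds; WT is in grey. TKOL replicate 1 (31921 peaks, 8.72 Mb) lies above the other replicate lists, while TKOL replicate 2 (16960 peaks, 3.65 Mb) lies among the DKO0 replicates.

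To ask whether lists of 1 line resembled each other more than lists of different lines, the length covered by both lists was divided by the length covered by either. The 2 DKO0 replicates shared 26.6% of that length. TKOL replicate 2 shared slightly less with each of them (25.3% and 25.8%), and only 15.8% with TKOL replicate 1. TKOL replicate 1 shared 17.3% and 16.4% with the DKO0 replicates. With WT replicate 1 the 4 lists shared 19.5% to 20.4%, and with WT replicate 2 TKOL replicate 1 shared 10.7% and the others 15.1% to 15.9%. With the 15995 peaks of highest −log10 p taken from each list, the DKO0 replicates shared 27.3%, TKOL replicate 2 shared 26.3% and 26% with them, and the TKOL replicates shared 18.3% with each other. Among pairs of the 4 DKO0 and TKOL lists, the DKO0 replicates were the most alike and the TKOL replicates the least alike under both settings. The 2 WT replicates shared less than the TKOL replicates did, at 14.8%, or 17.2% with equal peak numbers. The pooled lists of DKO0 and TKOL shared 44.8%.

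Trim28 peaks lay away from genes in both lines. Each peak was assigned by its midpoint to a promoter (within 1000 bp of the start of a protein-coding transcript), to the rest of a protein-coding gene, or to intergenic sequence. Promoters hold 2.3% of the sequenced genome, gene bodies 37.2% and intergenic sequence 60.5%. Intergenic shares were 73.6% and 74.5% in the DKO0 replicates and 72.6% and 74.2% in the TKOL replicates, all above the genome share. Gene bodies took 25.1% and 24.3% in DKO0 and 23.8% and 24.6% in TKOL, below the genome share, and nearly all of it was intronic, with at most 0.765% of any list in coding-gene exons. The lines differed by 0.529 percentage points for gene bodies and 0.595 for intergenic sequence (exact permutation p = 0.667 for each), within the spread of replicates.

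Promoters were the class in which TKOL replicate 1 departed most. Only 1.33% and 1.21% of DKO0 peaks and 1.2% of the peaks of TKOL replicate 2 were at promoters, below the genome share. In TKOL replicate 1 it was 3.59%, above it. The mean difference was -1.12 percentage points (exact permutation p = 1), and it became 0.0743 without that list. Within 500 bp of a transcript start, the share of peaks over the share of the genome was 0.614 and 0.566 in DKO0 and 0.549 in TKOL replicate 2, but 2.31 in TKOL replicate 1. Beyond 250 kb it was 1.24 and 1.26 in DKO0, 1.29 in TKOL replicate 2 and 1.13 in TKOL replicate 1. The pooled TKOL list, which includes the reads of replicate 1, gave 1.6 within 500 bp and the pooled DKO0 list 0.442. The WT replicates had 2.08% and 2.47% of peaks at promoters, between the values of the TKOL lists.

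**Figure D2:**
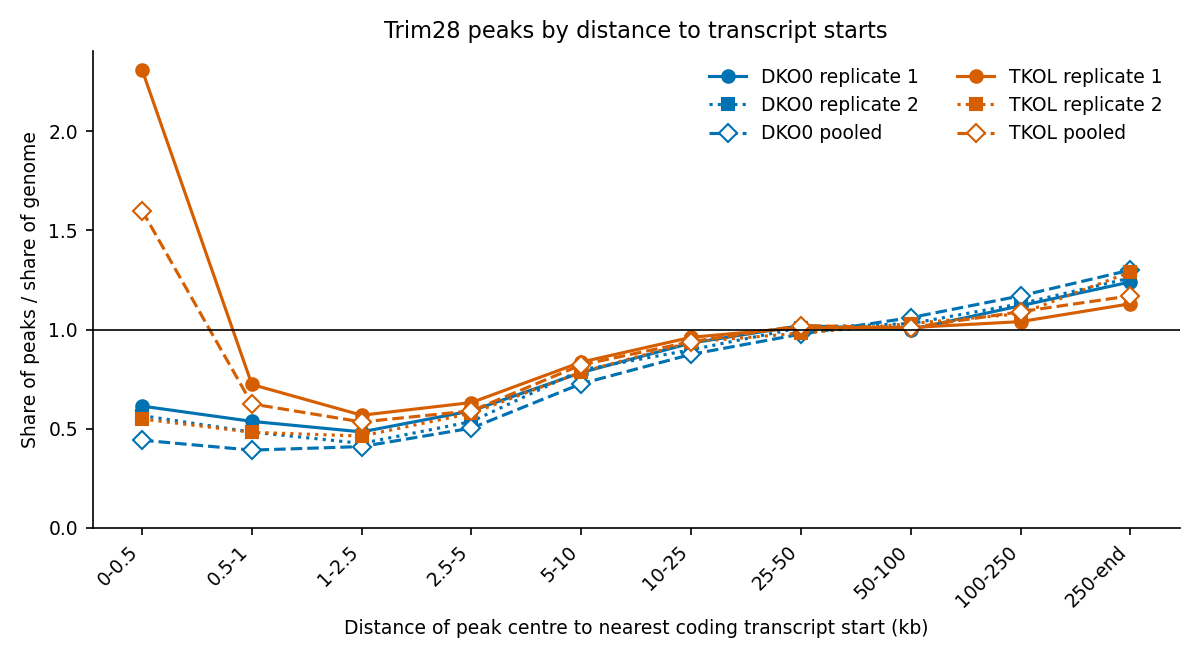
Share of Trim28 peaks divided by the share of the genome (y) in bins of distance from the nearest coding transcript start (x, kb); the line at 1 marks equal shares. At 0 to 0.5 kb TKOL replicate 1 reaches 2.31 and the pooled TKOL list 1.6, and the other 4 lists lie between 0.442 and 0.614.

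Which genes these promoters belonged to was read from gene lists. Of 22367 protein-coding genes, 253 and 194 had a promoter peak in the DKO0 replicates, 206 in TKOL replicate 2 and 1247 in TKOL replicate 1 (5.58%). Both DKO0 replicates had a peak at 52 promoters (0.232%), both TKOL replicates at 75 (0.335%), and all 4 lists at 38. Anywhere from 1000 bp upstream to the gene end, 1424 genes (6.37%) had a peak in both DKO0 replicates and 1660 (7.42%) in both TKOL replicates.

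Imprinted genes are expressed from a single parental copy. Among 39 imprinted genes looked for, 33 were annotated as protein-coding. Of these, 15 (45.5%) had a promoter peak in TKOL replicate 1, whereas none had one in TKOL replicate 2 or in either DKO0 replicate. The WT replicates had 5 and 3 (15.2% and 9.09%), beside 2.62% and 2.11% of all genes. The 15 members, named after their values were seen, included Nap1l5 (fold enrichment 8.40), Mcts2 (6.98), Peg10 and its neighbour Sgce (1 shared peak, 6.86), Plagl1, a zinc finger gene (6.73), Peg3 (6.37), Inpp5f (6.02), Grb10, a growth-restricting adaptor (4.99), Snrpn (4.39) and Mest (3.85). Nap1l5, Mcts2, Plagl1, Inpp5f and Nnat also had a peak in WT replicate 1, at 5.93, 3.66, 3.32, 3.34 and 3.32. None of these 5 had one in WT replicate 2, whose 3 were Grb10 (2.79), H13 (2.79) and Peg3 (2.74). H13 had no peak in TKOL replicate 1. Among the 14 peaks behind these calls, 10 had a −log10 q of at least 5. With equal peak numbers, 14 of the 33 genes had a promoter peak in TKOL replicate 1 and 0 in each of the other 3 replicate lists. At a −log10 q of at least 5 the numbers were 11 and 0. H3K9me3 lists placed a promoter peak at 2 and 0 of the 33 genes in the DKO0 replicates and at 0 in both TKOL replicates, where all genes had 3.63% and 1.41% in DKO0 and 2.02% and 1.12% in TKOL. Which of the 2 TKOL libraries stands for the line cannot be told from these lists, and why they differ was not tested.

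The word TGCCGC was found in the central 300 bases of 11 of the 14 imprinted promoter peaks (78.6%), on either strand. Such a window held it at 21.8% of all promoter peaks of TKOL replicate 1, at 6.9% of those of TKOL replicate 2, at 8.54% and 11.3% of those of the DKO0 replicates, at 18.4% of starts of coding transcripts and in 1.81% of the genome. The printed window of Nap1l5 holds it 4 times, that of Mcts2 3 times and that of Peg10 and Sgce 1 time. Zdbf2, Zrsr1 and Mkrn3 were the promoter peaks without it. A match is a description of the sequence and does not show that a protein binds there. The paper reports that TKOL cells lost DNA methylation globally, and methylation at these windows was not examined here.

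Hist and ribosomal protein genes also had larger shares with a promoter peak in TKOL replicate 1 than all genes did (5.58%). Of 67 Hist genes, the clustered replication-dependent histone genes, 47 (70.1%) had a promoter peak in TKOL replicate 1 and 2 in TKOL replicate 2. The DKO0 replicates had 9 and 5. In WT there were 22 and 6 (32.8% and 8.96%), beside 2.62% and 2.11% of all genes. Near-identical histone copies and shared divergent promoters make these counts uncertain gene by gene. Unlike the imprinted genes, most of these calls were weak, and only 3 were left at a −log10 q of at least 5. Of 72 ribosomal protein genes, 15 (20.8%) had a promoter peak in TKOL replicate 1, 2 in TKOL replicate 2 and 1 in each DKO0 replicate. The WT replicates had 9 and 3 (12.5% and 4.17%), also above their shares of all genes. With equal peak numbers 4 ribosomal protein genes were left in TKOL replicate 1, and at a −log10 q of at least 5 only 1 was. Zfp genes, many of which encode zinc finger proteins of the kind that recruit Trim28, had a promoter peak in 26 of 365 cases in TKOL replicate 1 (7.12%, near the 5.58% of all genes), 6 in TKOL replicate 2 (1.64%, beside 0.921%), and 6 and 4 in DKO0 (1.64% and 1.1%, beside 1.13% and 0.867%). A peak in the last exon, which holds the zinc finger array in many of these genes, was found at 19 of 358 Zfp genes (5.31%) in TKOL replicate 1, at 1 in TKOL replicate 2 and at 2 and 1 in DKO0. Over all genes the last-exon share in TKOL replicate 1 was 0.89%, and the length of last exons was not taken into account.

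Genes of the Trim28 pathway and of the DNA methylation machinery themselves had no promoter peak in both replicates of either line, out of 21 genes in each list. The same held for Hox genes (40), lineage regulators (20), pluripotency genes (19) and two-cell stage genes (17). Over all genes the share was only 0.232% in DKO0 and 0.335% in TKOL, so lists of this size would hold about none at that share. Germline genes, many of which are silenced by DNA methylation, had 1 of 31, which was Sycp1, a synaptonemal complex gene, in both lines (3.71 and 4.04 in DKO0, 3.96 and 3.82 in TKOL). From promoter to gene end, 5 germline genes (16.1%) had a peak in both DKO0 replicates and 6 (19.4%) in both TKOL replicates, beside 6.37% and 7.42% of all genes. Among 1087 olfactory receptor genes, 1 had a promoter peak in both replicates of each line, which was Olfr270. Of 320 vomeronasal receptor genes, 0 had one. From promoter to gene end, 12 of them (3.75%) had a peak in both DKO0 replicates and 11 (3.44%) in both TKOL replicates. These shares were below the 6.37% and 7.42% of all genes. Longer genes can hold more peaks, and gene length was not taken into account here or for the germline genes.

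**Figure D3:**
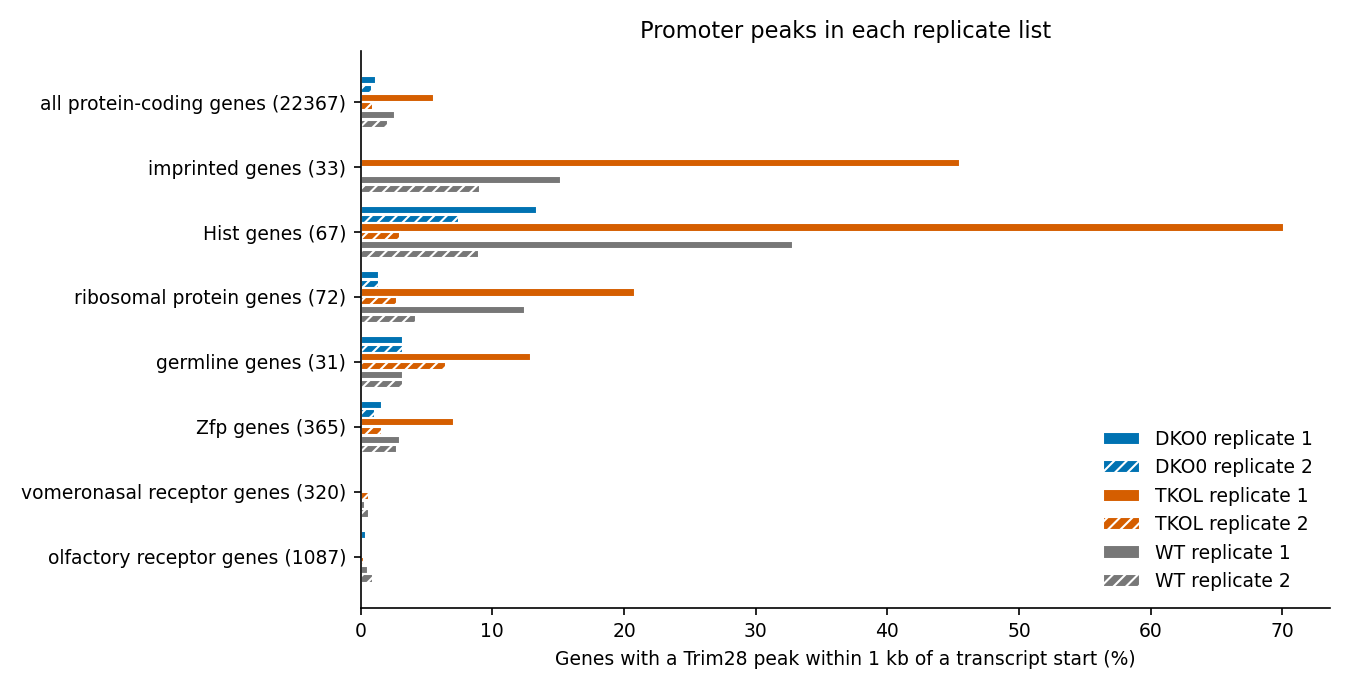
Percent of the genes of each list (number in brackets) with a Trim28 peak within 1 kb of a transcript start, in each replicate list. The TKOL replicate 1 bar reaches 45.5% for imprinted genes and 70.1% for Hist genes, while TKOL replicate 2 and both DKO0 replicates are at 0% for imprinted genes.

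Promoters with a peak in all 4 replicate lists were few. Phf21a, a histone reader of a corepressor complex, had fold enrichments of 14.10 and 15.05 in DKO0 and 11.41 and 14.65 in TKOL. Rps29, a ribosomal protein gene, had 11.73 and 11.12 in DKO0 and 9.63 and 13.27 in TKOL. In the pooled lists Rps29 reached 34.09 in DKO0 and 72.48 in TKOL. Litaf had 12.69 and 10.64 in DKO0 and 13.75 and 13.17 in TKOL, but no peak in either pooled list. The same was true of Oasl1 (8.03, 5.23, 10.99 and 9.55 in the same order) and of the taste receptor gene Tas2r134 (5.90, 5.07, 11.24 and 7.84). Parp2, a DNA repair enzyme gene, had 5.78 and 7.87 in DKO0 and 8.37 and 8.02 in TKOL. Ank1, Ccdc107, 4930423O20Rik and Gm17462 completed the 10 with the highest lowest value, which lay between 4.22 and 6.41. For Oasl1, Tas2r134, Parp2, Litaf, Ank1 and Ccdc107 both TKOL values were above both DKO0 values, and for 4930423O20Rik both DKO0 values (7.15 and 6.28) were above both TKOL values (6.17 and 5.18). For Phf21a, Rps29 and Gm17462 the values of the lines overlapped. These differences were not tested, and how often values separate over all 38 promoters was not counted. Over loci in all 4 lists, the medians of the highest fold enrichment went the other way. They were 4.82 and 4.72 in DKO0 and 3.68 and 4.68 in TKOL.

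Promoters found in 1 line alone depended on which lists were read. A single gene, Melk, a cell-cycle kinase gene, had a promoter peak in both DKO0 replicates (3.56 and 5.21) and in no TKOL list, or 0.00447% of genes tested. In TKOL there were 21, or 0.0939%. A DKO0-only promoter has to be absent from TKOL replicate 1, which had a peak at 1247 genes. Without TKOL replicate 1 and the pooled TKOL list there were 11 DKO0-only genes of 52, and 127 of the 206 genes of TKOL replicate 2 had no peak in a DKO0 list. The second number needs a peak in a single list, so the 2 are not on the same footing. The 5 with the highest lower value were Gm5453 (6.93 and 5.99), Hist1h3e (4.42 and 4.45), Uros, a haem synthesis gene (3.92 and 4.15), Mgat1, an N-glycan enzyme gene (3.80 and 4.16) and Nfat5, an osmotic stress factor gene (3.61 and 7.20). Hist1h4f was also among the 21 (3.49 and 3.60), as were the methyltransferase genes Prmt1 (3.09 and 4.04) and Suv420h1 (3.14 and 3.60), which are named after their values were seen. No imprinted gene was among the 21, because none had a peak in TKOL replicate 2.

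Turning to loci, most had a peak in no more than 1 replicate list. Of 91808 loci, 46128 (50.2%) came from the pooled lists alone, 32122 (35%) had a peak in 1 of the 4 replicate lists and 4409 (4.8%) in all 4. TKOL replicate 1 alone accounted for 15277 of the loci in a single replicate list, against 5533 for TKOL replicate 2 and 6408 and 4904 for the DKO0 replicates. Of the loci called by TKOL replicate 1 alone, 6.66% were at promoters and 6.9% held TGCCGC in the central 300 bases, whereas the other 3 lists gave 1.97% to 2.28% and 1.75% to 3.3%.

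Most loci with a peak in both replicates of a line had one in some list of the other line. Both DKO0 replicates had a peak at 6570 loci, and 6292 of these (95.8%) had one in a TKOL list. Both TKOL replicates had a peak at 7507 loci, and 7078 (94.3%) had one in a DKO0 list. This left 278 DKO0-only loci (0.303% of all loci) and 429 TKOL-only loci (0.467%). With the pooled lists unused, 764 of 7152 loci of both DKO0 replicates (10.7%) and 1508 of 7638 of both TKOL replicates (19.7%) had no peak in the other line. With 15995 peaks per list, 479 loci were DKO0-only (1.18%) and 638 TKOL-only (1.57%). Fewer peaks in the other line leave more loci without one, and 261 of the 479 and 399 of the 638 had a peak in the full lists of the other line. At a −log10 q of at least 5 the numbers were 32 and 12, so the line with more such loci changed. Without a replicate of a line, and without its pooled list, DKO0-only loci ran from 1416 to 5863 and TKOL-only loci from 2225 to 12329. Without TKOL replicate 1 there were 1697 DKO0-only and 5043 TKOL-only loci. The settings differ in how many lists must hold a peak and how many must lack one, and no test over loci was made.

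Line-only loci had lower fold enrichment than loci in all 4 lists, except in TKOL replicate 1. In the DKO0-only loci the median of the highest fold enrichment was 3.76 and 3.79 in the replicates, and in the TKOL-only loci 3.70 and 3.67. At loci in all 4 lists it was 4.82 and 4.72 in DKO0 and 3.68 and 4.68 in TKOL. Line-only loci were also short, at a median of 261 bp for DKO0 and 339 bp for TKOL, compared with 1784 bp for loci in all 4 lists. A longer locus can hold more peaks, from which the highest value was taken. A peak missing from a list does not show that binding was absent.

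The strongest DKO0-only locus, near Glt6d1 (chr2:25673113-25673575), had fold enrichments of 6.99 and 8.09 in the replicates. It had a peak in 1 of the 4 H3K9me3 replicate lists of the lines, in 0 of the 4 Uhrf1 lists and in 1 of the 2 WT Trim28 lists. Another 2 of the 5 lay nearest to 4632415L05Rik (6.51 and 6.32) and Gm17434 (5.69 and 5.39).

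In TKOL the 5 strongest loci lay nearest to Gm9956 on chromosome 10 (7.34 and 7.73) and 1700009N14Rik on chromosome 4 (7.33 and 8.07), in the Nom1 intron (6.87 and 7.51), at Gm5453 inside Tnpo1 (6.93 and 5.99) and near Dcdc2a (10.01 and 5.91). The locus near Dcdc2a had a peak in all 4 H3K9me3 replicate lists of both lines and in both WT Trim28 lists. The first 4 had no H3K9me3 or Uhrf1 peak in any of the replicate lists.

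Of the 5 sites with the highest fold enrichment in all 4 lists, 4 are described. The locus at chrX:166649832-166650296 had 18.12 and 19.12 in DKO0 and 17.93 and 18.57 in TKOL, and its central 300 bases held the telomeric word TTAGGG 47 times. That at chr12:94815342-94815761 had 19.63 and 20.06 in DKO0 and 17.55 and 20.07 in TKOL, and held the word 40 times. The other 2 were in an intron of Chl1 (20.53 and 20.52 in DKO0, 17.34 and 20.52 in TKOL) and on chromosome 12 (19.98, 19.97, 15.92 and 20.02). In each of these, TKOL replicate 1 had the lowest of the 4 values. Each also had a peak in all 4 H3K9me3 replicate lists of the lines and in 2 to 4 of the 4 Uhrf1 lists. In the pooled lists their fold enrichment was 6.36 to 18.56 in DKO0 and 2.31 to 8.01 in TKOL. The pooled TKOL value was below both TKOL replicates at each site, and why was not tested. TTAGGG was in the window of 12.3% of loci in all 4 lists, beside 11.2% of the genome.

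Sequence copies set these loci apart from the genome. The central 31-base word of a locus occurred 10 or more times in mm9 at 94.1% of loci in all 4 lists, 86.7% of DKO0-only loci and 76% of TKOL-only loci, compared with 11.4% of evenly spaced words of the genome. Over all loci the share was 73.1%, so that of TKOL-only loci was near it. A read that holds only such repeated sequence cannot be placed at a single copy, so a peak there may stand for another copy. How the reads were placed was not examined. Loci in all 4 lists had a median of 2.3 CpG per 100 bp and the genome 0.834. DKO0-only loci had 0.774, TKOL-only loci 0.958 and all loci 0.941.

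H3K9me3 and Uhrf1, read from their own lists, separated shared from line-only loci. An H3K9me3 peak lay at 90.2% to 96.3% of loci in all 4 Trim28 lists across the 4 H3K9me3 replicate lists of the lines, and at 20.2% to 28.4% of all loci. DKO0-only loci had 34.9% and 40.6% in the DKO0 replicates and 34.5% in each TKOL replicate. TKOL-only loci had 50.8% and 33.6% in the TKOL replicates and 49% and 48.5% in the DKO0 replicates. For H3K9me3, the line that had the Trim28 peaks was thus not set apart from the other line by non-overlapping values at TKOL-only loci. At DKO0-only loci the lowest DKO0 value was 34.9% and both TKOL values were 34.5%. Wider loci overlap more peaks of any list, and the shared loci were the widest.

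Uhrf1, the cofactor that brings Dnmt1 to replicating DNA, was measured through a FLAG tag on the endogenous gene and had a peak at 27.8% to 47.1% of loci in all 4 lists. DKO0-only loci had 2.88% and 3.6% in DKO0 and 3.6% and 5.76% in TKOL, close to the share over all loci (3.9% to 6.85%). TKOL-only loci had 15.4% and 13.3% in DKO0 and 14.7% and 12.4% in TKOL, above that share in both lines alike. WT Trim28 peaks were at 90.8% and 71.4% of loci in all 4 lists, at 30.2% and 17.6% of DKO0-only loci and at 35% and 18.9% of TKOL-only loci.

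**Figure D4:**
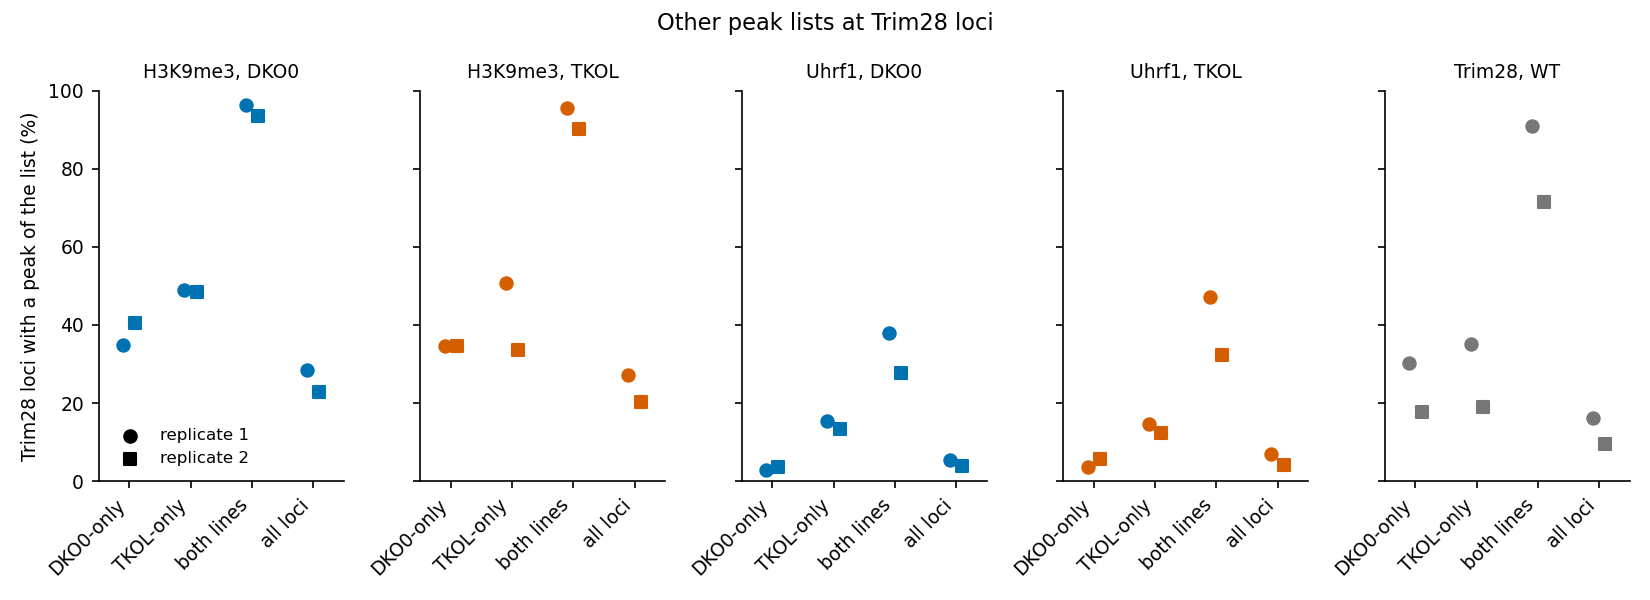
Percent of Trim28 loci of each set (x) that overlap a peak of the H3K9me3, Uhrf1 or WT Trim28 replicate lists (y); circles are replicate 1 and squares replicate 2. Loci in all 4 Trim28 lists reach 90.2% to 96.3% for H3K9me3, and DKO0-only loci 34.5% to 40.6%.

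Most IAP copies had a Trim28 peak nearby in every list of both lines. Copies of IAPez, IAPltr, L1MdT and MuERVL were located in mm9 by the hairpin bisulfite primers of the study, with converted bases allowed for and both primers within 200 bp, and counted as bound with a peak within 500 bp. The share of other places in the genome with a peak that near was not measured, so these shares have no background value. The primer pairs for B1 and the major satellite gave 14 copies and none, and are left out. IAPez, an IAP class, was bound at 90.5% and 88.4% of 1037 copies in the DKO0 replicates and at 96.2% and 86.3% in the TKOL replicates. Of these copies, 865 had a peak in all 4 lists. The pooled lists reached 99.7% and 99.9%, so they leave almost no copy to be called in 1 line alone. With the pooled lists unused, 1 copy was bound in both DKO0 replicates and neither TKOL replicate, and 7 the other way round. Without TKOL replicate 1 and the pooled TKOL list, 32 of the 899 copies of both DKO0 replicates had no peak in TKOL replicate 2. Median fold enrichment at bound IAPez copies was 5.09 and 5.25 in DKO0 and 3.37 and 5.19 in TKOL, so TKOL replicate 1 gave the most copies and the lowest enrichment. The long terminal repeat of IAPs, IAPltr, was bound at 69.9% and 67% of 279 copies in DKO0 and at 80.6% and 65.9% in TKOL.

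L1MdT, a young LINE-1 family, showed the widest gap between replicates. It was bound at 26.3% and 28.6% of 1445 copies in DKO0 and at 28.2% in TKOL replicate 2, but at 76.8% in TKOL replicate 1. The pooled lists had 97.1% in DKO0 and 96.8% in TKOL, and the WT replicates 36.1% and 18.1%. MuERVL, the retrovirus-like element active at the two-cell stage, had the lowest shares in the replicate lists, at 6.36% and 7.54% of 676 copies in DKO0 and 13.6% and 8.43% in TKOL, while the pooled lists had 83.1% and 79.4%. For MuERVL both TKOL values were above both DKO0 values, but those of WT (14.1% and 5.47%) spanned them all. H3K9me3 lists covered 77.5% to 92.8% of L1MdT copies in the replicates of both lines, above the share with Trim28 in each replicate list. Copies of a class share sequence and reads and are not replicates of each other.

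**Figure D5:**
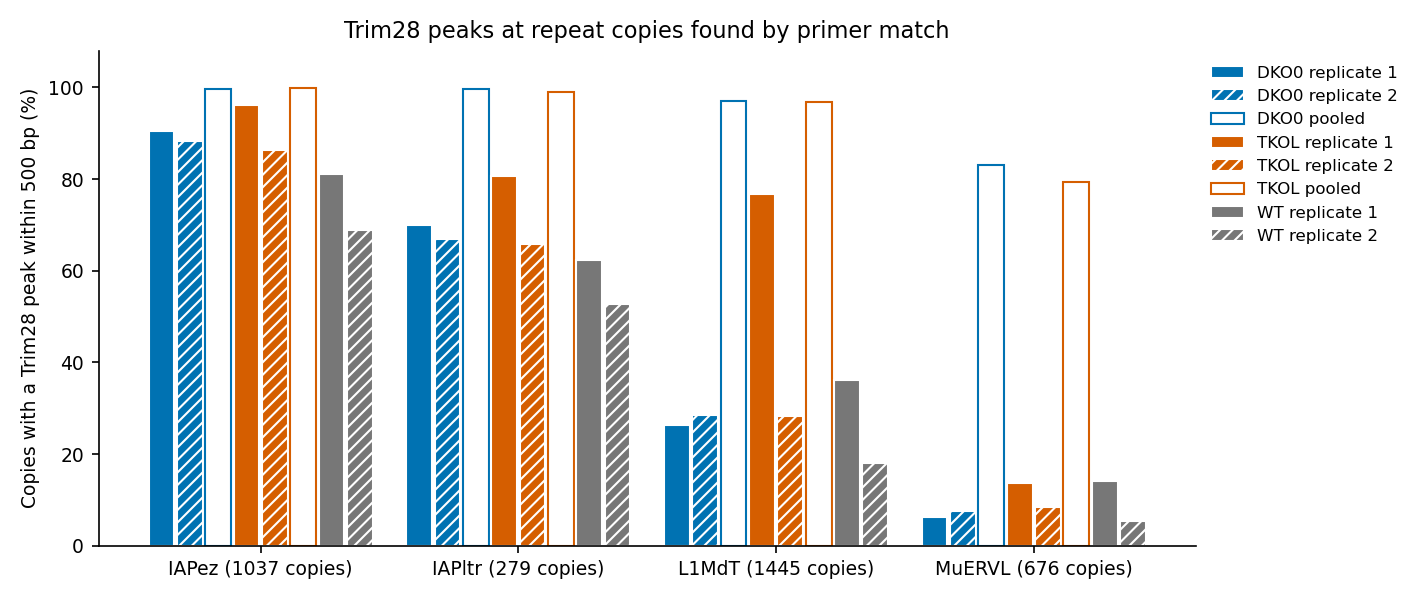
Percent of the copies of 4 repeat classes with a Trim28 peak within 500 bp in each list; open bars are pooled lists. IAPez is at 86.3% to 96.2% in the DKO0 and TKOL replicates, and L1MdT is at 26.3% to 28.6% in 3 of them and at 76.8% in TKOL replicate 1.

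By chromosome, peaks were spread unevenly and much alike in both lines. Chromosome 10 held 7.09% and 7.02% of DKO0 peaks and 7.83% and 7.23% of TKOL peaks, but only 4.96% of the genome. Chromosome 14 held 6.57% and 6.26% in DKO0, 7.7% and 6.85% in TKOL and 4.75% of the genome. Chromosome 2 held less than its 6.97% of the genome, at 5.59%, 5.54%, 4.82% and 5.65% in the same order. The replicate values of the lines did not overlap for 8 of 21 chromosomes with DKO0 higher (38.1%) and for 5 with TKOL higher (23.8%). The widest gap of means was on chromosome 14, where DKO0 minus TKOL was -0.857 percentage points. With equal peak numbers, 8 chromosomes were higher in DKO0 and 3 in TKOL.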

How the data were processed

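Trim28, H3K9me3 and Uhrf1 peak lists of DKO0 and TKOL and the Trim28 lists of WT were read as deposited. The authors used BWA mem for alignment (mm9), GATK for taking out duplicate reads and MACS2 for peak calling. The methods state default parameters, whereas the lists are in the broad format. For the pooled lists the authors merged replicates at the read level. Each deposited list gives a score (a multiple of the −log10 q), a ratio (fold enrichment over the MACS2 background), a −log10 p-value and a −log10 q-value. The lists hold no read totals, so the depth is unknown and no counting interval was made.

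Groups and replicates came from the sample labels. The 6 Trim28 lists were merged at 1 bp of overlap, and peaks on the mitochondrial chromosome were left out of locations and loci. Locations used GENCODE vM1 protein-coding genes on NCBIM37, the assembly of mm9, with promoters within 1000 bp of a transcript start. Printed sequence, word copies and primer matches came from that genome. Named loci and genes were the 5 of each line with the highest lower replicate fold enrichment among line-only loci and among line-only promoters, the 10 promoters with the highest lowest value over 4 lists, and up to 4 members of each gene list with a peak in both replicates of a line. Members and lists were chosen with earlier results of these data known. The 2 lines were compared over replicate lists by exact two-sided permutation tests (smallest p 0.333), which were first tested on simulated data. Alternatives were the 15995 strongest peaks of each list, a −log10 q of at least 5, promoters of 2500 bp, overlap by 50% of the shorter peak, loci merged over 1000 bp, pooled lists alone or unused, each replicate left out and a replicate block. Python 3.11.15, numpy 2.4.6, pandas 2.3.3, scipy 1.17.1 and matplotlib 3.10.9 were used. The WT lists of H3K9me3 and Uhrf1 and the hairpin methylation table were not used. Values of 3 of the named loci are not reported here.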

Additional observations from a re-analysis of the deposited data

How the results depend on the processing

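The 7 differences between lines (DKO0 minus TKOL) kept their direction under 55 of 64 alternatives. These include the replicate block, 1 for each difference, which changes only the p-value and cannot change the direction. The exact permutation test could not pass the threshold with 2 lists per line under any alternative. Sizes changed more: median width went to -37 bp with equal peak numbers, -37.8 bp at a −log10 q of at least 5 and -52 bp between the pooled lists, and at that q the peak number went to -584 and the promoter share to -0.0285 percentage points. The pooled lists alone reversed the peak number (6460). The intergenic share was reversed with equal peak numbers (-0.938 percentage points) and at a −log10 q of at least 5 (-0.914). Leaving out each replicate in turn gave differences of -14672.5 to 288.5 in peak number, -4.87 to 0.203 Mb in covered length, -12 to 1 bp in median width, -0.00313 to 0.573 in fold enrichment, -2.32 to 0.0743 percentage points in promoter share, 0.143 to 0.916 in gene body share and -0.224 to 1.41 in intergenic share. Each reversal among these came without TKOL replicate 1, where fewer lists remained (288.5 peaks, 0.203 Mb, 1 bp, -0.00313, 0.0743 and -0.224 percentage points). DKO0-only loci numbered 479 with equal peak numbers, 32 at a −log10 q of at least 5 and 764 with the pooled lists unused. TKOL-only loci numbered 638, 12 and 1508. Leaving out a replicate gave 1416 to 5863 and 2225 to 12329, with fewer lists required to hold or lack a peak. In alternatives chosen after seeing the data, promoter peaks of TKOL replicate 1 lay at 381 genes with equal peak numbers and at 72 at a −log10 q of at least 5, of 1247. Promoters in both replicates of 1 line alone (1 in DKO0, 21 in TKOL) ran from 1 to 132 and from 21 to 1064 under such alternatives. The cause of the other changes was not tested.

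With the replicate number as a block, the difference in peak number was -7192 with an exact p of 0.5, the smallest that 2 pairs allow, and no call changed. The labels do not say that a number marks a shared culture or day. Shared length does not settle the pairing, since TKOL replicate 1 shared less with both DKO0 replicates (17.3% and 16.4%) than TKOL replicate 2 did (25.3% and 25.8%).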
